A study of Sus scrofa with 15 samples.

Results

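The genes described here were HIF1A, the regulated subunit of hypoxia-inducible factor 1, and 9 genes of glucose uptake and glycolysis, namely SLC2A1, SLC2A3, HK2, PFKFB3, PFKL, PKM, LDHA, PGK1 and ENO1. They were chosen as a named set of 10 genes, by matching symbols to the Ensembl pig identifiers of the count table. Of the 10 genes, 8 were paired with an identifier, and all 8 were among the 12774 genes with enough counts to be tested, out of 31908 genes in the table. The glucose transporters SLC2A1 (GLUT1) and SLC2A3 (GLUT3) were not paired with an identifier and were not analysed here.

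The samples were livers of male piglets of a Duroc x Large White x Landrace cross, which had been randomly assigned to a control (CON) or a lipopolysaccharide (LPS) group. LPS, a component of the outer membrane of Gram-negative bacteria, was injected intraperitoneally at 80 μg/kg in the LPS group, and the CON group received sterile saline. The liver was taken 4 h after the injection. The 3 CON and 3 LPS libraries used here were the input fractions of an m6A immunoprecipitation experiment, that is, sonicated polyadenylated RNA kept before the antibody was added.

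When oxygen is scarce, hydroxylation of HIF-1α by prolyl hydroxylases slows, the protein escapes degradation and, together with ARNT, it switches on genes for glucose transport, glycolysis and lactate formation. Activated macrophages and neutrophils also raise HIF-1α and glycolysis after sensing LPS, in part through NF-κB acting on the HIF1A gene. Hepatocytes use a different set of isozymes (such as PFKFB1, PKLR and GLUT2) that suit a tissue switching between glucose storage and glucose release. HK2, PFKFB3 and PKM are usually minor forms in healthy hepatocytes.

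Total counts lay between 5927348 and 10351491 in the CON libraries and between 4348478 and 19967417 in the LPS libraries, the highest being LPS replicate 3. LPS replicate 2 correlated with the CON libraries at 0.928 to 0.949 (log2 CPM, over genes), against 0.914 and 0.858 with LPS replicates 1 and 3, while the CON libraries correlated with each other at 0.947 to 0.957. Counts were expressed as CPM, the usual counts relative to the TMM-scaled library size, and LPS was compared with CON by edgeR's quasi-likelihood test with Benjamini-Hochberg adjustment over all tested genes. A gene was called when its adjusted p was below 0.05 and its fold change above 1.5, which 7 genes, or 0.0548% of those tested, reached. Nothing in the sources used here says which library came from which piglet, so p-values measure the spread between these libraries.

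None of the 8 genes was called. At an unadjusted p below 0.05 by edgeR's test, 4 of the 8 (HK2, PFKFB3, LDHA and ENO1) were higher in LPS, beside 6.18% of all tested genes, and 0 of 8 were lower, beside 6.33% of all tested genes. LDHA and ENO1 were above every CON library in all 3 LPS libraries (2 of 8, beside 6.52% of tested genes), and 0 of 8 lay below every CON library, beside 9.80% of tested genes. The fitted log2 fold change was above 0 for 7 of the 8 genes with TMM factors, for 8 with DESeq2's size factors in edgeR and for 5 when libraries were scaled to their total counts. The median log2 fold change of the 8 genes was 0.63, beside 0.01 over all tested genes. DESeq2 called 0 of the 8 genes, beside 2.91% of the genes it tested, and put 4 of the 8 at an unadjusted p below 0.05.

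In TMM-scaled CPM, LPS replicate 3 was the highest of the 6 libraries for 6 of the 8 genes. LPS replicate 1 was the highest for the other 2 (PFKL and ENO1). LPS replicate 3 had a TMM factor of 0.735. As a share of total counts, it was not the highest library for HIF1A and PKM. Relative to the mean of the CON libraries, the median of the 8 genes on the log2 scale was -0.32, 0.05 and 0.21 in CON replicates 1 to 3, and in LPS replicates 1 to 3 it was 0.28, 0.13 and 1.01. LPS replicate 1 was just above CON replicate 3, LPS replicate 2 lay among the CON libraries, and LPS replicate 3 stood apart. Without LPS replicate 3, the median log2 fold change was 0.36 and only ENO1 kept an unadjusted p below 0.05. Without LPS replicate 2, the median was 0.82 and 4 of the 8 genes had an unadjusted p below 0.05. Only 1 gene was below 0.05 by edgeR's test without CON replicate 1 (LDHA) and 1 without CON replicate 2 (PFKFB3). Without LPS replicate 1 there were 3, and without CON replicate 3 there were 4. With all 6 libraries, 3 of the 8 were below 0.05 with total counts, 2 with the replicate number as a block and 2 with limma-voom.

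**Figure D1:**
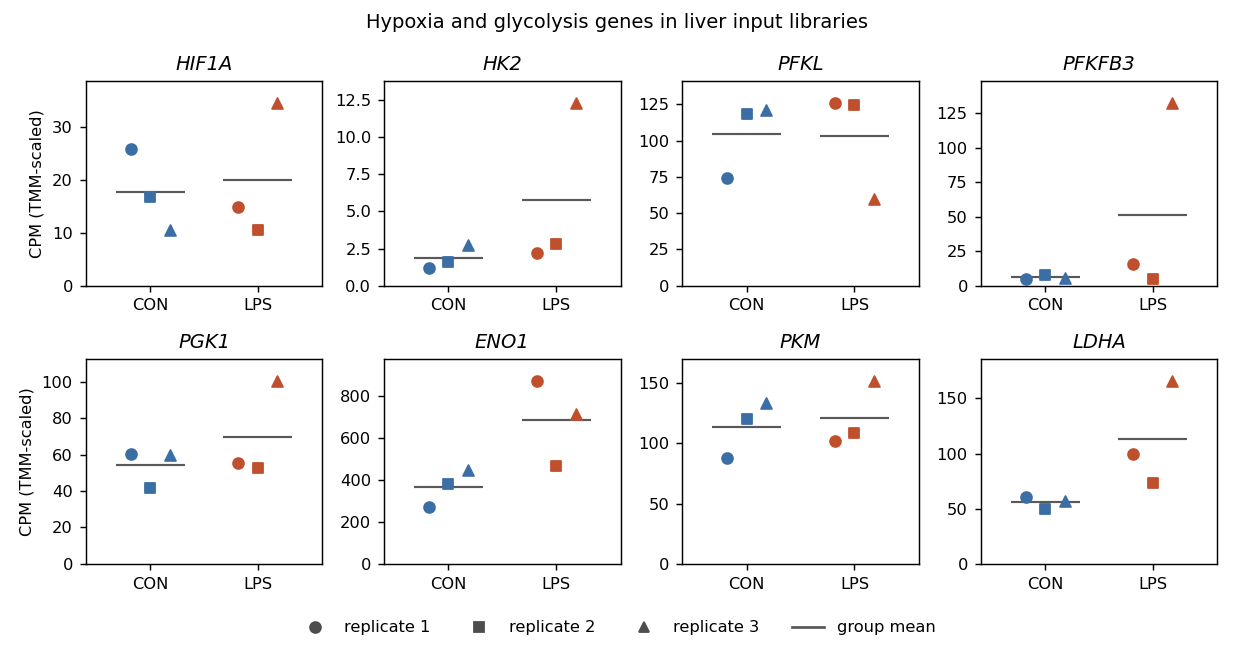
TMM-scaled CPM of the 8 genes (vertical axes, linear and starting at 0, a different scale in each panel) in the CON libraries (blue) and LPS libraries (red), with replicate numbers as marker shapes and grey lines at the group means. LPS replicate 3 (red triangle) is the top point for HIF1A, HK2, PFKFB3, PGK1, PKM and LDHA and the bottom point for PFKL, and only LDHA and ENO1 have all 3 LPS points above all 3 CON points.

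HIF1A encodes HIF-1α, the subunit whose protein stability is set by oxygen (ENSSSCG00000005096, chr1:190625181-190674850, plus strand, in the coordinates of the deposited table, for which no source used here names a pig build). Its level was 25.9, 16.9 and 10.6 CPM in CON replicates 1 to 3 and 14.8, 10.5 and 34.6 CPM in LPS replicates 1 to 3. In TMM-scaled CPM, LPS replicate 3 was the highest and LPS replicate 2 the lowest of the 6 libraries, so the CON values lay inside the LPS range. As a share of total counts, CON replicate 1 was above LPS replicate 3 (290 of 10311658 against 507 of 19967417). The fitted difference was a log2 fold change of 0.18 ± 0.50 (SE; 95% interval -0.93 to 1.29), with an adjusted p of 0.912 by edgeR's test. Its direction was not settled, being -0.48 without LPS replicate 3 and -0.10 with libraries scaled to total counts, a scaling under which the median of all genes was -0.12.

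HIF-1α acts with partner subunits and is removed by an oxygen-dependent pathway. Of 19 genes for HIF subunits, prolyl hydroxylases and the degradation machinery, 17 had an identifier and 16 were tested. None was called, 0 had an unadjusted p below 0.05, 10 had a log2 fold change above 0, and the median was 0.06. EPAS1, which encodes HIF-2α, had the smallest unadjusted p of the list (0.149, edgeR), at 127, 158 and 172 CPM in the CON libraries and 260, 129 and 292 CPM in the LPS libraries. LPS replicates 1 and 3 were above every CON library for EPAS1, and LPS replicate 2 was next to the lowest CON library. ARNT, the constitutive partner of HIF-1α, had a log2 fold change of -0.48 ± 0.35. EGLN3, a prolyl hydroxylase that is itself a HIF target, had 0.53 ± 0.40, and RACK1, which competes with HSP90 for HIF-1α, had 0.39 ± 0.32.

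Hexokinase 2 phosphorylates glucose on entry and is the inducible hexokinase of muscle, fat and activated immune cells. HK2 (ENSSSCG00000008261, chr3:68145890-68231615, minus strand) was at 1.16, 1.56 and 2.77 CPM in CON replicates 1 to 3 and 2.18, 2.78 and 12.3 CPM in LPS replicates 1 to 3. These levels rested on 13, 10 and 28 counts in the CON libraries and 10, 17 and 180 counts in the LPS libraries. LPS replicate 3 was 6.71-fold above the CON mean, whereas LPS replicate 2 only just passed the highest CON library and LPS replicate 1 lay among the CON values. The fit gave a log2 fold change of 1.69 ± 0.70 (SE; 95% interval 0.14 to 3.25), with an unadjusted p of 0.0359 and an adjusted p of 0.364 by edgeR's test. Without LPS replicate 3 it was 0.45.

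PFKFB3 makes fructose 2,6-bisphosphate, the strongest activator of phosphofructokinase 1, and its kinase activity far exceeds its phosphatase activity. PFKFB3 (ENSSSCG00000011133, chr10:64776315-64859051, minus strand) had the largest fold change of the set and the widest spread. Its level was 4.65, 7.66 and 5.54 CPM in CON replicates 1 to 3 and 15.5, 4.74 and 132 CPM in LPS replicates 1 to 3, the last from 1938 counts. Thus LPS replicate 3 was 22.3-fold and LPS replicate 1 was 2.60-fold above the CON mean, while LPS replicate 2 lay within the CON range. LPS against CON gave a log2 fold change of 3.12 ± 1.02 (SE; 95% interval 0.82 to 5.41), with an unadjusted p of 0.0134 and an adjusted p of 0.268 by edgeR's test.

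PFKFB3 was also the gene whose call depended on the settings. It was called without LPS replicate 2 (log2 fold change 3.66, adjusted p = 0.0217 by edgeR, where 7.20% of tested genes were called) and without a filter on low counts (3.09, adjusted p = 1.41e-10 by edgeR, where 3.76% of tested genes were called). Over its alternatives the adjusted p of PFKFB3 ran from 1.41e-10 to 0.722, and without LPS replicate 3 its log2 fold change was 0.78. It was 2.06 with limma-voom and 1.91 with the replicate number as a block, both with an unadjusted p above 0.05.

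PFKL, the liver form of phosphofructokinase 1, catalyses the committed step that fructose 2,6-bisphosphate activates. PFKL (ENSSSCG00000028197, chr13:207167372-207191690, plus strand) was at 74.3, 118 and 121 CPM in CON replicates 1 to 3 and at 126, 124 and 59.6 CPM in LPS replicates 1 to 3. It was the only gene of the set with its lowest value in LPS replicate 3, and the groups overlapped almost completely. The fitted difference was a log2 fold change of -0.02 ± 0.38 (SE; 95% interval -0.86 to 0.83), with an adjusted p of 0.992 by edgeR's test, and it was 0.27 without LPS replicate 3 and 0.02 with DESeq2's size factors.

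PGK1, ENO1 and PKM belong to the later steps, from triose phosphates to pyruvate. Phosphoglycerate kinase 1 makes the first ATP of the payoff phase. PGK1 (ENSSSCG00000012440, chrX:62187431-62212244, plus strand) was at 60.4, 41.9 and 59.9 CPM in CON replicates 1 to 3 and at 55.6, 52.7 and 100 CPM in LPS replicates 1 to 3. LPS replicates 1 and 2 lay inside the CON range, and only LPS replicate 3 stood above it. The fit gave a log2 fold change of 0.36 ± 0.35 (SE; 95% interval -0.42 to 1.14), with an adjusted p of 0.707 by edgeR's test, and it was 0.02 without LPS replicate 3. Exons of PGK1 overlap those of TAF9B on the opposite strand, to which 325 counts were assigned against 3595 for PGK1. No source used here says how the counting used strand.

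Enolase 1 converts 2-phosphoglycerate to phosphoenolpyruvate. ENO1 (ENSSSCG00000022343, chr6:69385882-69401117, minus strand) was at 269, 381 and 448 CPM in CON replicates 1 to 3 and 868, 465 and 713 CPM in LPS replicates 1 to 3. All LPS libraries were above all CON libraries, although LPS replicate 2 passed CON replicate 3 by little. LPS against CON gave a log2 fold change of 0.90 ± 0.36 (SE; 95% interval 0.10 to 1.70), with an unadjusted p of 0.0315 and an adjusted p of 0.353 by edgeR's test. Unlike PFKFB3 and HK2, it did not rest on LPS replicate 3, being 0.88 without that library and 0.70 without LPS replicate 1. With single libraries left out, its unadjusted p by edgeR's test ran from 0.0105 (without LPS replicate 2) to 0.114 (without CON replicate 1). It was also above 0.05 without CON replicate 2 (0.0741) and without LPS replicate 1 (0.109). With all 6 libraries, the same p was 0.0574 with total counts and 0.0502 with the replicate number as a block.

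PKM, the pyruvate kinase gene of most tissues other than liver parenchyma and red cells, closes the pathway to pyruvate. PKM (ENSSSCG00000001930, chr7:60971823-61033803, plus strand) was at 87.8, 120 and 133 CPM in CON replicates 1 to 3 and at 102, 108 and 151 CPM in LPS replicates 1 to 3. The groups overlapped, with only LPS replicate 3 above the CON range in TMM-scaled CPM. As a share of total counts, LPS replicate 3 was below CON replicate 3 (2217 of 19967417 against 1350 of 10351491). The fitted difference was a log2 fold change of 0.09 ± 0.32 (SE; 95% interval -0.63 to 0.80), with an adjusted p of 0.939 by edgeR's test, and it was -0.10 without LPS replicate 3 and -0.07 with libraries scaled to total counts. The table counts whole genes, so the M1 and M2 splice forms of PKM were not separated.

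Lactate dehydrogenase A, the subunit that favours making lactate from pyruvate, had LPS and CON values that did not overlap. LDHA (ENSSSCG00000013366, chr2:40812453-40826715, minus strand) was at 61.0, 50.0 and 57.2 CPM in CON replicates 1 to 3 and at 99.9, 73.6 and 166 CPM in LPS replicates 1 to 3. The lowest LPS library was above the highest CON library, and the CON libraries were close together. The group means were 56.1 ± 5.60 CPM in CON and 113 ± 47.4 CPM in LPS (SD, n = 3). The fit gave a log2 fold change of 1.01 ± 0.36 (SE; 95% interval 0.21 to 1.81), with an unadjusted p of 0.0182 and an adjusted p of 0.295 by edgeR's test. It was 0.65 without LPS replicate 3 and between 0.94 and 1.25 without each of the other libraries.

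**Figure D2:**
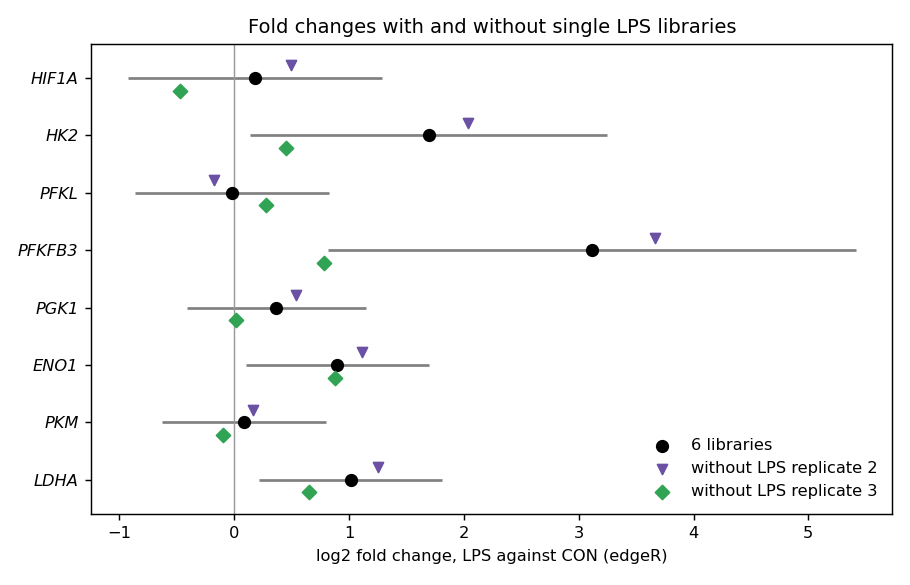
Log2 fold change of LPS against CON from edgeR (horizontal axis) for the 8 genes, with black points and 95% interval bars for the fit to 6 libraries, purple triangles without LPS replicate 2 and green diamonds without LPS replicate 3. Leaving out LPS replicate 3 moves PFKFB3 from 3.12 to 0.78 and HK2 from 1.69 to 0.45, while ENO1 stays at 0.88 and HIF1A turns to -0.48.

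Compared per kilobase of the deposited gene length, the levels spanned a wide range. In the CON libraries the order was ENO1 (95.0 ± 23.6 CPM per kb; SD, n = 3), PFKL (29.3 ± 7.38), LDHA (12.9 ± 1.29), PGK1 (12.1 ± 2.36), PKM (8.07 ± 1.67), HIF1A (3.28 ± 1.42), PFKFB3 (0.636 ± 0.165) and HK2 (0.340 ± 0.155). Of the neighbours in this order, LDHA and PGK1 differed by less than the larger of their SDs and the others by more. In the LPS libraries ENO1 was again the highest, at 177 ± 52.8 CPM per kb, followed by PFKL (29.0 ± 10.6), LDHA (26.1 ± 10.9), PGK1 (15.5 ± 5.95) and PKM (8.57 ± 1.91). PFKFB3 was next, at 5.44 ± 7.57, then HIF1A at 3.69 ± 2.38 and HK2 at 1.07 ± 1.05. In LPS, neighbours in this order differed by less than the larger of their SDs, except ENO1 from PFKL, PGK1 from PKM and HIF1A from HK2. The deposited lengths cover all annotated exons of a gene, which makes the level of a gene with many long isoforms, such as PKM at 14076 bases, low on this scale. No source used here says how multiply mapped reads were counted, and the glycolytic genes GAPDH and ALDOA held only 26 and 8 counts. Whether the counting affected the order of the 8 genes was not tested.

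The ratio of a gene to another isozyme of the same step within a library does not depend on the scaling between libraries. For 5 such pairs the ratio of counts per kb was compared by an exact two-sided permutation test, in which 3 against 3 libraries cannot give a p below 0.1. LDHB encodes the heart-type subunit of lactate dehydrogenase. The row paired with that symbol (ENSSSCG00000032557, chr2:12988708-12990067, minus strand) is a single block of 1360 bases without introns, and RefSeq (Sscrofa11.1) lists 2 genes named LDHB, so which copy its reads came from is uncertain. LDHA to this row had a log2 ratio of 0.08, -0.52 and -0.47 in the CON libraries and 1.94, 0.24 and 2.32 in the LPS libraries, with every LPS library above every CON library. The difference of the means was 1.80 (exact permutation p = 0.1, adjusted p = 0.167). The LDHB row itself was at 18.1, 22.5 and 24.8 CPM in CON and 8.07, 19.5 and 10.4 CPM in LPS.

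PKM to PKLR, the pyruvate kinase of hepatocytes and red cells, had a log2 ratio of -0.27, 0.17 and 0.60 in the CON libraries and 0.78, 0.87 and 1.82 in the LPS libraries. In bulk CON liver PKM was thus near PKLR per kb, with a mean log2 ratio of 0.16. Every LPS library was above every CON library, and the difference of the means was 0.99 (exact permutation p = 0.1, adjusted p = 0.167). PKM was nearly level between the groups, and PKLR was at 36.6, 36.9 and 30.6 CPM in CON against 20.5, 20.4 and 14.8 CPM in LPS, with a log2 fold change of -0.90 ± 0.30 (adjusted p = 0.268) by edgeR's test.

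PFKFB3 to PFKFB1, the liver form whose phosphatase activity dominates in fasting, had a log2 ratio of 1.02, 1.78 and 2.26 in CON and 4.35, 2.44 and 10.2 in LPS. With 0.5 added to each count the groups did not overlap, with a difference of 3.99 (exact permutation p = 0.1, adjusted p = 0.167), and with 5 added they overlapped, with a difference of 3.23 (exact permutation p = 0.2). The value of LPS replicate 3 set 1938 counts of PFKFB3 against 2 counts of PFKFB1. Without that library the difference was 1.71.

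For the other pairs the groups overlapped with 0.5 added to each count. The difference of the log2 ratios was -0.53 for PFKL to PFKM, the muscle phosphofructokinase (exact permutation p = 0.3, adjusted p = 0.375), and 0.34 for ENO1 to ENO3, the muscle enolase (exact permutation p = 0.6, adjusted p = 0.6). With 5 added to each count, every LPS ratio of PFKL to PFKM was below every CON ratio, with a difference of -0.52 (exact permutation p = 0.1), and ENO1 to ENO3 still overlapped.

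**Figure D3:**
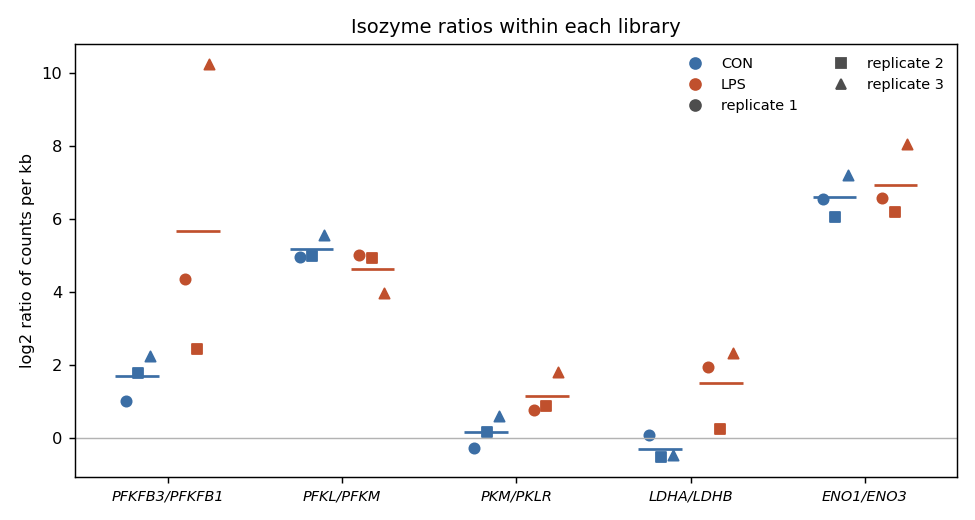
Log2 ratio of counts per kb (vertical axis) of each gene to its isozyme within each library, for 5 pairs and with 0.5 added to each count, with CON in blue and LPS in red, replicate numbers as marker shapes and lines at the group means. The LPS points lie above the CON points for PFKFB3/PFKFB1, PKM/PKLR and LDHA/LDHB, and overlap them for PFKL/PFKM and ENO1/ENO3.

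The rest of the glycolytic pathway had values in both directions. Of 22 other glycolytic enzymes and regulators, all had an identifier and 17 were tested, of which 0 were called. A log2 fold change above 0 was fitted for 13, the median was 0.24, and at an unadjusted p below 0.05 there were 1 higher (PFKFB2) and 2 lower (PFKFB1 and PKLR), beside 6.18% and 6.33% of all tested genes. None of this list was called under any of the alternative fits. PFKFB2, the heart isoform of the bifunctional enzyme, was at 4.83, 4.06 and 5.34 CPM in CON and 10.2, 6.38 and 14.6 CPM in LPS, and all LPS libraries were above CON. PFKFB1 was at 3.57, 3.44 and 1.78 CPM in CON and 1.09, 1.31 and 0.137 CPM in LPS, all LPS libraries being below CON. Thus among the bifunctional enzymes, PFKFB2 and PFKFB3 had higher fitted values in LPS (log2 fold change 1.14 and 3.12) and PFKFB1 a lower one (-1.94), none of them past the adjusted threshold.

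TPI1, the triose phosphate isomerase, had a log2 fold change of 0.50 ± 0.30. ENO3 had a log2 fold change of 0.63 ± 0.55, and PFKM one of 0.45 ± 0.36 with all LPS libraries above CON. GAPDH, which lies just before PGK1 in the pathway, and ALDOA, an aldolase, held 26 and 8 counts over all 6 libraries and were below the filter. GAPDH is used by every cell, so these counts were not read as expression levels, and their cause was not tested.

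**Figure D4:**
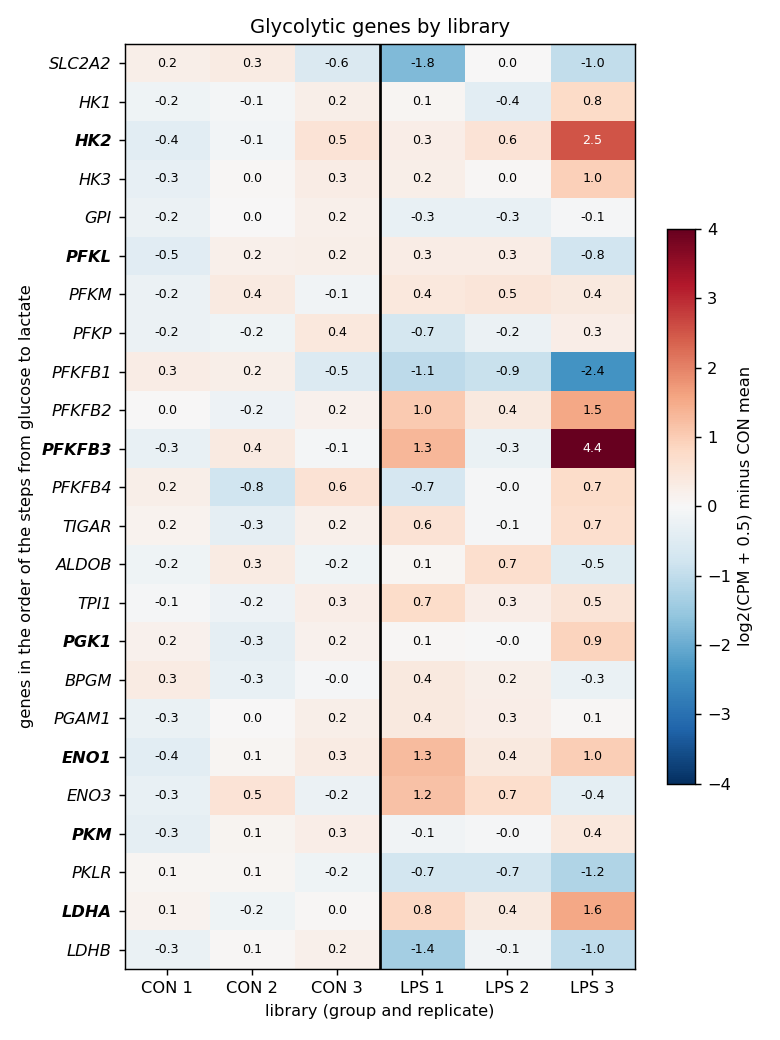
Heat map of log2(CPM + 0.5) minus the mean of the CON libraries (color, -4 to 4) for 24 glycolytic genes in the order of the pathway (rows) in the 6 libraries (columns), with the gene symbols of the set in bold and each value printed in its cell. PFKFB3 and HK2 in LPS replicate 3 are the deepest red cells. Values are positive in all LPS libraries for LDHA, ENO1, PFKFB2, HK2, HK3, PFKM, TPI1 and PGAM1. They are negative in all LPS libraries for PKLR, PFKFB1, GPI and LDHB, and some of these values are small.

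Of 9 transporters other than SLC2A1 and SLC2A3, 5 were tested and 4 were below the filter, among them SLC2A9 with 0 counts in all libraries. None of the 5 was called or had an unadjusted p below 0.05, and their median log2 fold change was -0.21. Without LPS replicate 2, 1 of the 5 (SLC2A10) was called, beside 7.20% of all tested genes. SLC2A2 (GLUT2), the main glucose transporter of hepatocytes, was at 142, 149 and 80.4 CPM in CON and 34.9, 120 and 60.7 CPM in LPS. LPS replicates 1 and 3 were below every CON library, and LPS replicate 2 lay among them. SLC2A10 had a log2 fold change of -1.09 ± 0.65, SLC2A4 (GLUT4) one of 0.82 ± 0.57 and SLC2A6, a lysosomal transporter of macrophages, one of 0.59 ± 0.54.

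Pyruvate either enters mitochondria through pyruvate dehydrogenase or leaves the cell as lactate. Of 20 genes, 17 had an identifier and were tested, 0 were called, 12 had a log2 fold change below 0 and the median was -0.45. At an unadjusted p below 0.05 there were 3 lower (PDHB, PDK1 and PDK2) and 1 higher (SLC16A7), beside 6.33% and 6.18% of all tested genes. For each of these 4 genes the groups did not overlap, beside 9.80% of tested genes below CON and 6.52% above. Without a filter 2 were called (SLC16A7 and PDK2), beside 3.76% of all tested genes, and with DESeq2 1 (SLC16A7), beside 2.91%. Without LPS replicate 2, 3 were called (SLC16A7, PDK2 and MPC2), beside 7.20% of all tested genes. Under the other alternatives 0 were called. PDHB, a subunit of pyruvate dehydrogenase, was at 52.4, 49.7 and 46.7 CPM in CON and 21.1, 33.2 and 25.7 CPM in LPS. PDK2 and PDK1, kinases that switch pyruvate dehydrogenase off, had log2 fold changes of -1.41 ± 0.54 and -0.84 ± 0.37, and PDK1 is a HIF-1 target in many cells. SLC16A7 (MCT2), a high-affinity lactate and pyruvate transporter, was at 2.95, 0.937 and 1.09 CPM in CON and 6.98, 5.89 and 12.6 CPM in LPS, with a log2 fold change of 2.32 ± 0.55 (adjusted p = 0.161) by edgeR's test.

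HIF also drives genes outside glycolysis, for matrix, vessels, red cells and pH. Of 34 genes, 30 had an identifier and were tested, and 0 were called. A log2 fold change above 0 was fitted for 21, the median was 0.32, and 7 were higher and 1 lower at an unadjusted p below 0.05 by edgeR's test, beside 6.18% and 6.33% of all tested genes. The 7 were CA12, EPO, ADM, BHLHE40, PLOD2, LOX and P4HA2, and the lower gene was INSIG2. In 3 of them (CA12, PLOD2 and P4HA2) all LPS libraries were above all CON libraries, a share of the 30 genes not far from the 6.52% of all tested genes.

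The calls in this list depended on the settings. They were 7 without a filter on low counts (CA12, PLOD2, INSIG2, ADM, EPO, BHLHE40 and PPP1R3C), where 3.76% of all genes were called, and 4 with DESeq2 (CA12, PLOD2, INSIG2 and ADM), where 2.91% were. Without LPS replicate 2 there were 5 (the same 4 and BHLHE40), where 7.20% of all genes were called. CA12 alone was called with the replicate number as a block, where 0.399% of all genes were, and without LPS replicate 3, where 0.461% were, and 0 were called under the other alternatives.

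CA12, a membrane carbonic anhydrase, was at 0.536, 0.156 and 0.791 CPM in CON and 19.8, 4.42 and 9.15 CPM in LPS. All LPS libraries were far above CON, although the CON values rested on 6, 1 and 8 counts. LPS against CON gave a log2 fold change of 4.36 ± 0.70, with an adjusted p of 0.0668 by edgeR's test and a range of 1.25e-10 to 0.586 over the alternatives. PLOD2, a lysyl hydroxylase of collagen, was at 9.56, 7.03 and 7.71 CPM in CON and 15.7, 15.1 and 34.0 CPM in LPS.

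LOX, which cross-links collagen, was at 4.11, 6.56 and 3.86 CPM in CON and 6.54, 11.6 and 15.7 CPM in LPS. LPS replicates 2 and 3 were above every CON library and LPS replicate 1 was next to the highest of them, and the log2 fold change was 1.24 ± 0.43 with an adjusted p of 0.282 by edgeR's test. INSIG2, which restrains sterol synthesis, was at 52.9, 25.3 and 25.7 CPM in CON and 3.49, 17.3 and 8.33 CPM in LPS, with every LPS library below CON. RefSeq lists 2 genes named INSIG2, so reads of this gene may be shared with a copy.

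**Figure D5:**
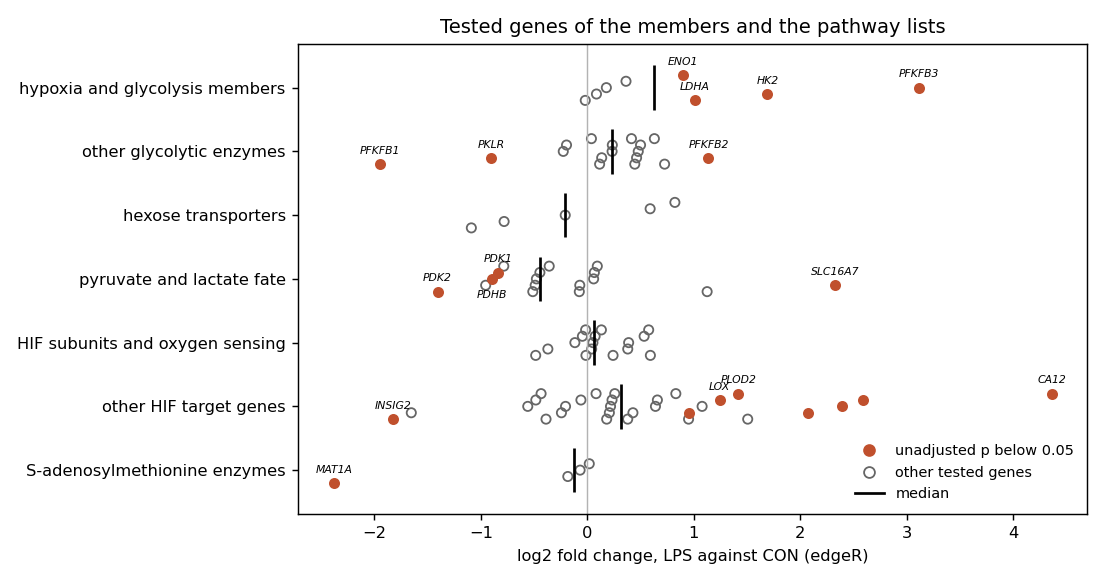
Log2 fold change of LPS against CON from edgeR (horizontal axis) for every tested gene of the 8-gene set and of 6 pathway lists (rows), filled red where the unadjusted p is below 0.05, with a black bar at each median and symbols at some filled points. Medians run from -0.45 for pyruvate and lactate fate to 0.63 for the 8 genes, and the widest range is that of other HIF targets, from INSIG2 at -1.83 to CA12 at 4.36.

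MAT2A, an enzyme that makes the methyl donor S-adenosylmethionine, is a target of HIF-1α in some cells and was followed in the study for that link. The study reported significantly higher HIF-1α and MAT2A in LPS livers, as mRNA by RT-qPCR and as protein by western blot. That RT-qPCR was relative to GAPDH, and its number of piglets per group was not that of the libraries here. The values below are from the sequenced input libraries only, scaled by TMM. MAT2A was at 44.2, 24.4 and 33.7 CPM in CON replicates 1 to 3 and at 19.8, 19.8 and 63.4 CPM in LPS replicates 1 to 3. As for HIF1A, LPS replicate 3 was the highest library in TMM-scaled CPM, with a TMM factor of 0.735, and the other LPS libraries were among the lowest. Its log2 fold change was 0.02 ± 0.48 (SE; 95% interval -1.06 to 1.10), with an adjusted p of 0.994 by edgeR's test, and its sign turned under several settings.

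MAT1A, the form of that enzyme in hepatocytes, was at 752, 1173 and 700 CPM in CON and 226, 201 and 78.9 CPM in LPS, all LPS libraries being below CON. The fitted difference was a log2 fold change of -2.38 ± 0.45, with an adjusted p of 0.0982 by edgeR's test. MAT1A was called without a filter (adjusted p = 6.74e-06, edgeR), with DESeq2 (adjusted p = 5.92e-05), with the replicate number as a block (adjusted p = 0.0314, edgeR) and without LPS replicate 2 (adjusted p = 0.0170, edgeR), and its adjusted p reached 0.586 over the alternatives. MAT2B, the regulatory subunit of MAT2A, had a log2 fold change of -0.18 ± 0.36, and AHCY, which clears S-adenosylhomocysteine, had -0.07 ± 0.28, both signs turning when single libraries were left out. Of these 4 genes 0 were called with 6 libraries, TMM factors and the filter, and the median was -0.13.

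The levels of cell type markers are given beside these values, since in bulk liver RNA fewer cells of a type and less RNA per cell cannot be told apart. Of 12 neutrophil markers, 8 were tested, 7 had a log2 fold change above 0, 1 (S100A8) was called, and none was at 0 in all libraries. Their summed level was 63.2, 59.5 and 105 CPM in CON replicates 1 to 3 and 214, 161 and 367 CPM in LPS replicates 1 to 3, with LPS replicate 3 again the highest. The neutrophil receptor CSF3R had a log2 fold change of 2.91 ± 0.47 (adjusted p = 0.0668) by edgeR's test, and it was called without a filter, with DESeq2, with the replicate block and without LPS replicate 2 or 3. Of the red cell and platelet markers, 3 of 8 were tested and all 3 had a log2 fold change above 0, the summed level of the list lying between 79.4 and 105 CPM in CON and between 100 and 369 CPM in LPS.

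Hepatocyte markers (8 of 8 tested, 5 with a log2 fold change below 0, 0 called) summed to 57630 to 73525 CPM in CON and 36104 to 69730 CPM in LPS, and ALB was below CON in all LPS libraries, with a log2 fold change of -0.76 ± 0.38. Kupffer cell or macrophage markers (9 of 10 tested, 0 of 9 above 0, 0 called) summed to 1873 to 2989 CPM in CON and 1259 to 2031 CPM in LPS, and CD163 had a log2 fold change of -0.24 ± 0.37 that turned to 0.08 without CON replicate 3. Endothelial markers (6 of 8 tested, 0 of 6 above 0, 0 called) summed to 240 to 551 CPM in CON and 188 to 339 CPM in LPS. T or NK cell markers (5 of 8 tested, 2 above 0) summed to 88.7 to 115 CPM in CON and 46.2 to 109 CPM in LPS, and stellate cell or cholangiocyte markers (6 of 8 tested, 2 above 0) to 844 to 1247 CPM in CON and 563 to 1286 CPM in LPS, with 0 called in either list. The part of these cell types in the values of the 8 genes was not tested.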

How the data were processed

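The input libraries of 3 CON and 3 LPS livers were analysed. For 31908 Ensembl pig genes, the authors deposited unnormalized counts of reads, with coordinates and gene lengths. The submitters' processing notes name cutadapt 1.9.3, HISAT2 and the builds galGal6 and hg38, neither of them a pig genome. No source used here names the counting program or says how it used strand and multiply mapped reads. CON replicates 1 and 2 have 2 sequencing entries each and 1 column each. The IP libraries were not analysed here. Symbols were paired with 15029 identifiers.

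The count model was fitted with edgeR 4.0.16 in R 4.3.3 (filterByExpr with a minimum count of 10, TMM, robust glmQLFit, glmQLFTest), and p-values were adjusted by Benjamini-Hochberg over 12774 genes. Standard errors are log2 fold changes over the root of the F statistic, and 95% intervals use the fitted degrees of freedom. Ratios used counts plus 0.5 per kb. The scripts were tested on simulated data. Depth differed between libraries, and this limits the precision of genes with few counts, such as HK2.

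Alternatives were DESeq2's size factors in edgeR (RLE), scaling to total counts, no filter, a minimum of 10 counts in each library, limma-voom (limma 3.58.1), DESeq2 1.42.0, a block for the replicate number, omission of single libraries, no fold threshold and a 2-fold threshold. For ratios, 5 was added to each count in place of 0.5.

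The 8 genes, the pathway lists (other glycolytic enzymes, hexose transporters, pyruvate and lactate fate, HIF subunits and oxygen sensing, other HIF targets, S-adenosylmethionine enzymes), the cell marker lists and the isozyme pairs were chosen with earlier results of these data known. The text names every gene of the set, its isozyme partners, SLC2A2, MAT1A, MAT2A, and in each pathway list the called genes or, with none called, up to 4 with the smallest unadjusted p. ALB, CSF3R and CD163 stand for their marker lists. GAPDH, ALDOA, SLC2A9, S100A8, TAF9B and the remaining HIF targets at an unadjusted p below 0.05 (ADM, EPO, BHLHE40 and P4HA2), and MPC2 and PPP1R3C, were named after their values were seen. Some single genes are not reported here and were left out of the lists and pairs.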

Additional observations from a re-analysis of the deposited data

How the results depend on the processing

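The number of called genes was 7, and it was 9 with RLE factors, 12 with total counts, 885 without a filter, 0 with at least 10 counts in every library, 418 with DESeq2, 2 with limma-voom, 51 with the replicate number as a block and 0 to 982 when single libraries were left out, the highest without LPS replicate 2. Of the 8 hypoxia and glycolysis genes, 1 (PFKFB3) was called without a filter and 0 to 1 when single libraries were left out, again without LPS replicate 2, and 0 under each of the other alternatives. Their median log2 fold change stayed between 0.36 and 0.82. No source used here pairs the samples by replicate number. The correlation of same-numbered deviations was -0.26, 0.22 and 0.03, and that of CON replicate 1 with LPS replicate 3 was 0.23. With 3 libraries in each group these values cannot settle whether the numbers pair samples. With the replicate block 0 of the 8 were called and their median was 0.60.

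Signs turned for genes near 0. HIF1A was -0.10 with total counts and -0.48 to 0.55 with single libraries left out. PFKL was 0.018 with RLE factors, 0.014 with DESeq2 and -0.22 to 0.27 with single libraries left out. PKM was -0.066 with total counts and -0.10 to 0.24 with single libraries left out. Total counts put the median of all genes at -0.12, and relative to it HIF1A was 0.02 and PKM 0.05. MAT2A was -0.25 with total counts, -0.0056 without a filter, -0.020 with at least 10 counts, -0.14 with limma-voom, -0.17 with the replicate block and -0.77 to 0.31 with single libraries left out. The same range was -0.35 to 0.079 for MAT2B, -0.13 to 0.020 for AHCY, -0.54 to 0.084 for CD163 and -0.23 to 0.71 for the ratio of ENO1 to ENO3. With 5 added to each count, the separation of the groups was lost for PFKFB3 to PFKFB1 and gained for PFKL to PFKM. The cause was not tested. Counting depth limits HK2, PFKFB1 and CA12, which rest on few counts.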
